A study of Mus musculus with 4 samples.

Results

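Potassium channel genes were examined in the spinal cord of nerve-injured mice at 2 times of day, with and without the adrenal glands. The members are all genes whose name in the annotation of the array starts with Kcn, 95 of 30222 gene names, which the array covered with 143 of its 39429 probes. For each gene the probe with the highest mean level over the 4 arrays was used, and all 95 names equalled a current symbol of the RefSeq annotation of GRCm38.p6. RNA came from lumbar slices (segments L4 to L5) of the spinal cord of male mice of the outbred ICR stock, aged 5 to 6 weeks when housed. They were taken on day 7 after PSL, a partial ligation of the sciatic nerve on the right side. Mice were either adrenalectomized before PSL and given saline to drink (ADX+PSL) or had the adrenals exposed and left in place (sham+PSL), and were sampled at ZT10, late in the light phase, or at ZT22, late in the dark phase. Plasma corticosterone of sham+PSL mice peaks near the first time and is low at the second, so the design asks which genes follow the time of day and whether they do so without adrenal glucocorticoid. All 4 groups carried the nerve injury, and no uninjured group was measured. Each group had 1 array (1-colour Agilent arrays of 60-base probes, all on 1 slide), so no difference between groups has a replicate check and no test between conditions could be made. The number of mice behind each RNA and the side of the cord are not given in the sources used here.

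Potassium channels let K+ leave the cell and thereby set the resting potential, shorten the action potential and limit repetitive firing. Voltage-gated channels of the Kcna, Kcnb, Kcnc, Kcnd, Kcnh and Kcnq families open on depolarization, inward rectifiers (Kcnj) hold the membrane near the potassium equilibrium potential, and Kcnk channels carry leak current. Calcium-activated and sodium-activated channels (Kcnma1, Kcnn and Kcnt) couple ion entry to repolarization. In the spinal cord these channels govern the excitability of dorsal horn and motor neurons, while the inward rectifier Kcnj10 (Kir4.1) of astrocytes takes up the potassium that neurons release.

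Levels are quantile-normalized intensities in arbitrary units, and the log2 ratio between 2 arrays is given with the error that the scanner software assigns to the spots, which covers the spot and not the mouse. Since probes differ in brightness, levels of different probes are not compared. In bulk slices, fewer cells of a type and less RNA per cell cannot be told apart. Well above background were 84 Kcn genes on the sham+PSL ZT10 array, 81 on sham+PSL ZT22, 82 on ADX+PSL ZT10 and 78 on ADX+PSL ZT22. Lists of markers for other tissue showed that arrays stood apart. The summed level of 4 red blood cell genes was 14207 on sham+PSL ZT22 and between 60288 and 97298 on the other 3 arrays, and that of 4 skeletal muscle genes was 1510 on sham+PSL ZT10 and between 105 and 108 on the others. The summed level of 5 genes of meningeal fibroblasts was 13983 and 11949 on the sham+PSL arrays and 4372 and 4872 on the ADX+PSL arrays. All 5 neuronal markers, among them Rbfox3 and Snap25, were well above background on every array.

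The probes behind the main results are shown by the first 30 of their 60 bases, 5′ to 3′, because a level belongs to the stretch of transcript its probe reads. Both probes of Kcnj13, the gene with the widest range among those measured on every array, lie on the minus strand of chr1 in mm9, at chr1:89282859-89282918 for the probe used and chr1:89282991-89283050 for the other, with 72 bases between them.
Kcnj13, probe used: tgtatctcatgtttccttgttctcagtgct
Kcnj13, other probe: catatcaatggacaaagcattgacaatttc
The single probe of Kcnv1 lies at chr15:44937912-44937971 (minus strand), and the probes of Kcnj11 and Kcng4, which were higher on both ZT10 arrays, at chr7:53353119-53353178 and chr8:122148827-122148886 (both minus strand).
Kcnv1: gagtgtatcaaagtctcttgcactatgaac
Kcnj11, probe used: agaaaaagaaatattgggaagttcagcctg
Kcng4: gccagctggactctgggtggacattcctag
The probes of the glial channels Kcnj10 and Kcnj16, which were lower on both ZT10 arrays, lie on the plus strand at chr1:174304062-174304121 and chr11:110889223-110889282.
Kcnj10: gaaacagaagaatctagggatgatttctct
Kcnj16: ttataacatgctttgacacgcctgatggct

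Most potassium channel genes were detected, and most differed little between the 4 arrays. Of the 95 genes, 77 were well above background on all 4 arrays, 7 on some and 11 on none. The genes on no array included Kcnk18 (TRESK, a leak channel of sensory neurons), Kcnn1, Kcnj1, Kcnj15, Kcna10, Kcng3, Kcnv2, Kcne1, Kcne2, Kcnmb1 and Kcnmb3. Kcnn4, the intermediate-conductance channel of blood cells and microglia, was well above background on 1 array, with 19.7, 18.5, 12.7 and 14.8 in the order sham+PSL ZT10, sham+PSL ZT22, ADX+PSL ZT10 and ADX+PSL ZT22, the order used for all levels that follow. Among the 77 genes, the highest and the lowest of the 4 levels were under 1.5-fold apart in 68 (88.3%, beside 83.8% of all genes), and the median of this range was 1.28-fold beside 1.23-fold. It exceeded 2-fold in 2 genes, Kcnj13 (3.03-fold) and Kcnj4 (2.17-fold).

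The potassium channel genes were mostly a little higher at ZT10 than at ZT22, and the calls by the limits of the study's methods were few. In sham+PSL the ratio of ZT10 to ZT22 was above 1 in 59 of the 77 genes (76.6%, beside 50.9% of all genes), with a median log2 ratio of 0.14 beside 0.0049 over all genes. In ADX+PSL, on arrays that the first comparison did not use, it was above 1 in 52 of 77 genes (67.5%, beside 50.1%), with a median of 0.08 beside 0.00071. Of the 39 Kcn genes with more than 1 probe, 23 had a second probe well above background on all 4 arrays. For sham+PSL that probe gave a median of 0.17 and a ratio above 1 in 73.9% of the 23 (beside 55.8% of all such genes). For ADX+PSL it gave a median of 0.04 and a ratio above 1 in 52.2% (beside 51.7%). The median spot error of a ratio was 0.20, so the typical difference lay within the error of a single gene. Past its own spot error the ratio was higher at ZT10 in 28 genes and lower in 6 in sham+PSL, which is 36.4% and 7.79% of the 77, beside 17.2% and 17.5% of all genes well above background on the 4 arrays. In ADX+PSL it was higher in 25 and lower in 8, which is 32.5% and 10.4%, beside 15.3% and 15.6% of all genes. In 5 of the 77 (6.49%, beside 5.56% of all genes) the ratios went opposite ways in the 2 operations, each past its spot error. To be called higher, a gene needed a ratio of at least 2 with a Z-score of at least 2, and to be called lower a ratio of at most 0.5 with a Z-score of at most -2; its brighter array also had to lie well above background. In sham+PSL, 1 of 84 genes was called higher at ZT10 (Kcnv1; 2.26% of all genes were) and 1 lower (Kcnj13; 2.16% of all genes). In ADX+PSL none of 82 was called in either direction, where 2.13% of all genes were called higher and 1.71% lower.

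Taking both operations together, 32 of the 77 genes (41.6%) had both ZT10 levels above both ZT22 levels, where 17.5% of all genes did, and 3 genes (3.9%) had both below, where 15.9% of all genes did. The 3 included Kcnj10 and Kcnj16. The gaps were small. Between the nearest ZT10 and ZT22 levels they had a median of 1.1-fold in the 32 genes and reached 1.44-fold in Kcnj11. Of the 23 genes whose second probe was well above background on all 4 arrays, 6 had both ZT10 levels higher with that probe. Of all such genes 20.8% did, so the excess was smaller there. There were 27 pairs of probes that read the same gene and passed the background flag on every array. The time ratio had the same sign in 19 of these pairs in sham+PSL and in 17 in ADX+PSL.

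**Figure D1:**
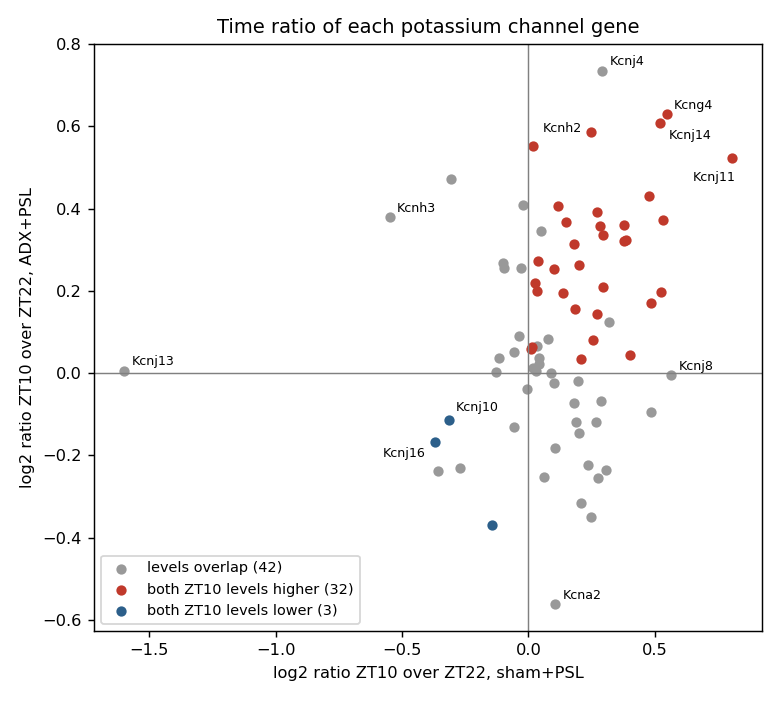
Each point is 1 of the 77 potassium channel genes well above background on all 4 arrays, with the time ratio (ZT10 over ZT22, log2) of sham+PSL on the x axis and of ADX+PSL on the y axis (1 array per group, no error bars). The 32 genes with both ZT10 levels above both ZT22 levels are red and the 3 with both below are blue; Kcnj13 lies far to the left, at -1.60 in sham+PSL and 0.01 in ADX+PSL.

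Markers of cell types had ratios by time of their own. The log2 time ratio of the 5 neuronal markers had a median of 0.05 for sham+PSL and 0.13 for ADX+PSL. All 5 were above 0 in both operations, but each lay within its spot error of 0.20. Medians of the 5 motor neuron markers were 0.15 and 0.16, with 3 of them above 0 in sham+PSL and 5 in ADX+PSL. Chat (-0.08) and Isl1 (-0.06) were below 0 in sham+PSL. The 5 microglial markers, among them Cx3cr1 and P2ry12, were all below 0 in both operations, with medians of -0.41 and -0.25, and the 5 oligodendrocyte markers had medians of -0.13 and -0.17, although Mbp was at 0.42 in ADX+PSL. The medians of the 5 astrocyte markers were -0.16 and 0.04. The part of cell makeup in the potassium channel ratios was not tested.

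Kcnj13 (Kir7.1), an inward rectifier known from ion-transporting epithelia such as the choroid plexus, stood highest on the sham+PSL ZT22 array with both of its probes. The probe used read 74.2, 225, 104 and 103. The sham+PSL ZT22 level was therefore 3.03-fold above that at ZT10, a log2 ratio of ZT10 to ZT22 of -1.60 with a spot error of 0.22, while the ADX+PSL levels differed by 0.01. The other probe read 51.8, 241, 65.3 and 83.2, with log2 ratios of -2.22 for sham+PSL and -0.35 for ADX+PSL. Both probes thus had the same high array, and all other levels of each lay well below it. At ZT22 the ADX+PSL level was lower than that of sham+PSL by a log2 ratio of -1.12, and at ZT10 it was higher by 0.48; both of these comparisons share an array with the sham+PSL time comparison. The high array was also the one with the low red blood cell genes, and the part of its tissue makeup was not tested.

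Kcnv1 (Kv8.1), a subunit that modifies other voltage-gated channels and carries no current of its own, was the gene called higher at ZT10 in sham+PSL. Its levels were 47.2, 14.8, 21.6 and 30.01, and the second was not well above background. The ZT10 level was at least 2.57-fold above that at ZT22 in sham+PSL, where the bound is the lowest signal that passed the background flag on the dimmer array. In ADX+PSL the order was the opposite, with a log2 ratio of -0.48 and a spot error of 0.39, so the 2 operations did not share a direction. The call was lost where both arrays of a comparison had to be well above background and under both other background corrections, and the gene has 1 probe and low levels throughout.

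**Figure D2:**
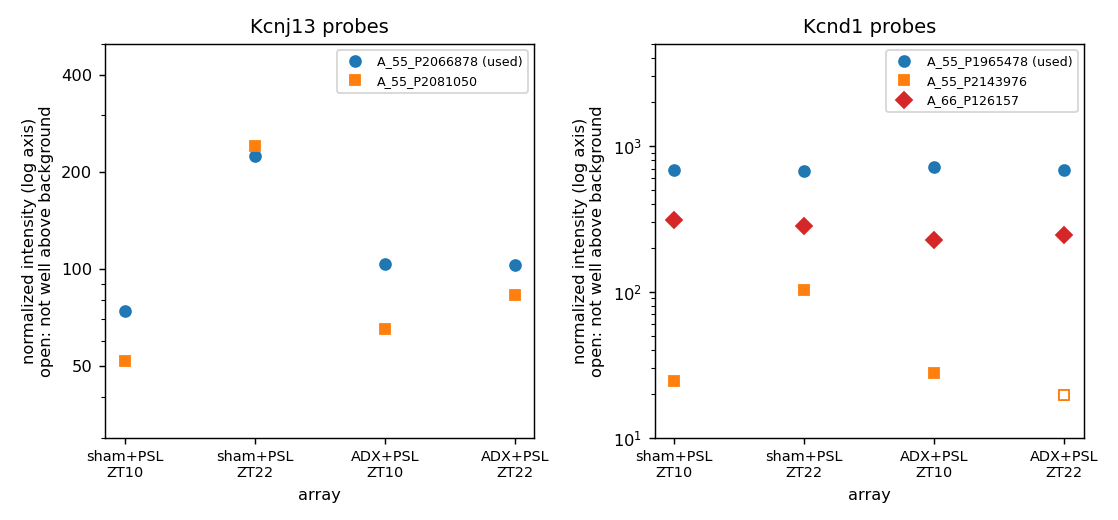
Normalized intensity (log axis) of each probe of Kcnj13 (left) and Kcnd1 (right) on the 4 arrays; each point is 1 array, the probe used is marked, and open points were not well above background. Both Kcnj13 probes are highest on the sham+PSL ZT22 array, and 1 of the 3 Kcnd1 probes is high on that array alone.

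Among the voltage-gated pore subunits, Kcna1, Kcna2, Kcna4 and Kcna6 form Kv1 channels, which sit beside the nodes of myelinated axons and at terminals and damp excitability. The 7 Kcna genes measured on all arrays had a median log2 ratio of ZT10 to ZT22 of 0.11 for sham+PSL and 0.02 for ADX+PSL. Kcna1 read 21454, 19325, 21196 and 16442, with both ZT10 levels higher (log2 ratios of 0.15 and 0.37). Kcna2 read 2102, 1951, 1955 and 2886. Its ADX+PSL ZT22 level stood above the other 3, with a log2 ratio of 0.56 over sham+PSL at that time and of -0.56 between the ADX+PSL time points. Kcna4 read 479, 465, 547 and 538, both ADX+PSL levels lying above both sham+PSL levels. Kcna6 read 14688, 15722, 18772 and 15722, with no order by time or operation. Kcna3, a Kv1 channel also known from immune cells, read 59.2, 48.5, 66.6 and 69.8 and was 0.53 higher on the log2 scale in ADX+PSL than in sham+PSL at ZT22.

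Kv2 channels (Kcnb) carry the delayed rectifier of neuronal cell bodies, and Kv3 channels (Kcnc) repolarize fast-spiking neurons. Kcnb2 read 143, 138, 121 and 95.4, lower on both ADX+PSL arrays, with a log2 ratio at ZT22 of -0.54. The 4 Kcnc genes were all above 0 by time in sham+PSL (median 0.23), and 3 of the 4 were below 0 in ADX+PSL (median -0.17). Kcnc1, the exception, read 6498, 5721, 6924 and 6211. Its other probes had log2 time ratios of 0.09 and -0.22 in ADX+PSL, so whether it was an exception depended on the probe. The Kcnd genes encode the A-type Kv4 channels. Kcnd2, a channel of dorsal horn neurons, read 3471, 3443, 3561 and 3422, and Kcnd3 read 3667, 3067, 3554 and 3362.

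The silent voltage-gated subunits (Kcnf, Kcng, Kcns and Kcnv), which join Kv2 subunits and alter their gating, had the highest median time ratio in sham+PSL of the families with at least 3 genes. All 7 measured on every array were above 0 in sham+PSL (median 0.32), and 6 of 7 in ADX+PSL (median 0.22). Both ZT10 levels were above both ZT22 levels in 5 of the 7: Kcnf1, Kcng1, Kcng2, Kcng4 and Kcns2. Kcng4 read 603, 413, 527 and 341, so the time points were separated by 1.28-fold at the nearest levels, with log2 ratios of 0.55 for sham+PSL and 0.63 for ADX+PSL. Kcns3 read 1920, 1594, 1797 and 1952, with opposite signs in the 2 operations (0.27 and -0.12).

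Of the cytoplasmic and membrane partners that carry the Kcn name, the 3 Kv1 beta subunits (Kcnab) had medians of 0.30 and 0.21 by time, and Kcnab1 read 4988, 4340, 4940 and 5463. The 4 Kv4-binding calcium sensors (Kcnip) had medians of 0.20 and 0.02. Kcnip3, also known as DREAM, a repressor of the prodynorphin gene in the spinal cord, read 7680, 8388, 7839 and 7822, with a log2 ratio of -0.13 in sham+PSL. Kcnip1 was printed in 10 spots, whose SD on the log2 scale was between 0.040 and 0.061 on each array, a spread within an array only, and its time ratios were 0.21 in sham+PSL and 0.03 in ADX+PSL. Of the 5 Kcne genes only Kcne1l was measured on every array, with 1626, 1763, 1665 and 1625.

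**Figure D3:**
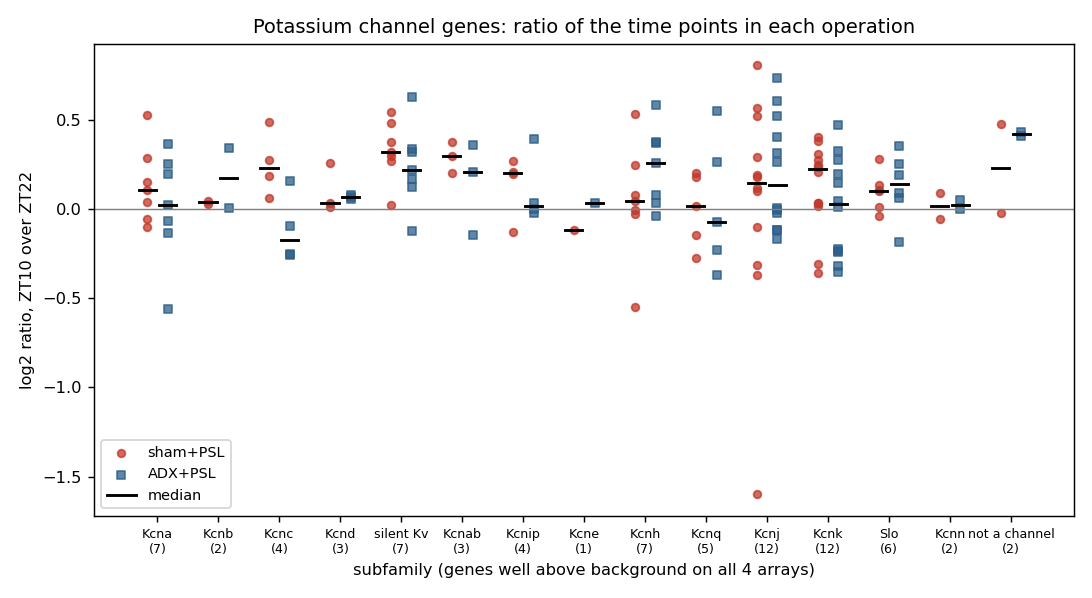
Log2 ratio of ZT10 to ZT22 for each gene well above background on all 4 arrays (the number per subfamily in brackets), with sham+PSL as red circles, ADX+PSL as blue squares and the median of each as a bar; there is 1 array per group, so points have no error bars. The silent voltage-gated subunits lie mostly above 0 in both operations, and the Kcnc genes lie above 0 in sham+PSL with a median below 0 in ADX+PSL.

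The ether-a-go-go channels (Kcnh) had median time ratios of 0.04 for sham+PSL and 0.26 for ADX+PSL. Kcnh2 (ERG1), which slows repetitive firing, read 1541, 1296, 1484 and 989, with its lowest level in ADX+PSL at ZT22 and log2 ratios of 0.25 and 0.59. Kcnh3 read 133, 194, 176 and 135 and changed sign between operations, -0.55 in sham+PSL and 0.38 in ADX+PSL. Kcnh7 read 42.6, 40.4, 33.2 and 31.4, with both ADX+PSL levels lower, by -0.36 on the log2 scale at each time. Its nearest levels were 1.22-fold apart, the widest separation of the operations among the 77 genes.

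Channels of the Kcnq family carry the M-current that restrains firing near threshold. Kcnq3 read 130, 128, 157 and 107.04, higher on both ZT10 arrays, by 0.02 on the log2 scale in sham+PSL and by 0.55 in ADX+PSL. Kcnq5 read 143, 126, 143 and 151, with no order by time.

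The inward rectifiers held both the largest ratios and the opposite directions. Kcnj11 (Kir6.2), the pore of channels that close when ATP is high, read 257, 147, 249 and 173. Both ZT10 levels were above both ZT22 levels, with log2 ratios of 0.81 for sham+PSL and 0.52 for ADX+PSL and a nearest gap of 1.44-fold, the widest of the 77 genes by time. Its second probe, dimmer and well above background on 2 of 4 arrays, read 32.9, 18.8, 28.2 and 16.1, in the same order by time. Kcnj8 (Kir6.1), the related pore of blood vessel cells, read 56.4, 38.1, 65.6 and 65.9. It was lowest in sham+PSL at ZT22 and had nearly equal levels in ADX+PSL (-0.01), with a log2 ratio of 0.79 between the operations at ZT22. Kcnj14 (Kir2.4), known from motor neurons of the brainstem, read 480, 335, 416 and 273, higher at ZT10 in both operations (0.52 and 0.61), and its second probe had 0.55 and 0.21. The nearest ZT10 and ZT22 levels of Kcnj14 were 1.24-fold apart.

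The glial pair went the other way. Kcnj10 (Kir4.1) read 64294, 79925, 67532 and 73103, and its partner Kcnj16 (Kir5.1) read 5020, 6487, 5458 and 6133. Both were lower on both ZT10 arrays than on both ZT22 arrays, with log2 ratios of -0.31 and -0.11 for Kcnj10 and -0.37 and -0.17 for Kcnj16 in sham+PSL and ADX+PSL, the second of each lying within the spot error of 0.20. The ADX+PSL levels of both genes lay between their sham+PSL levels. The 5 astrocyte markers had no common direction, with median log2 time ratios of -0.16 for sham+PSL and 0.04 for ADX+PSL. Aqp4 (-0.50 and -0.26) and Gfap (-0.16 and -1.07) were lower at ZT10 in both operations, and Aldoc was higher (0.19 and 0.38). Slc1a3 (-0.19 and 0.12) and Gja1 (-0.13 and 0.04) changed sign between the operations, each within the spot error of 0.20.

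**Figure D4:**
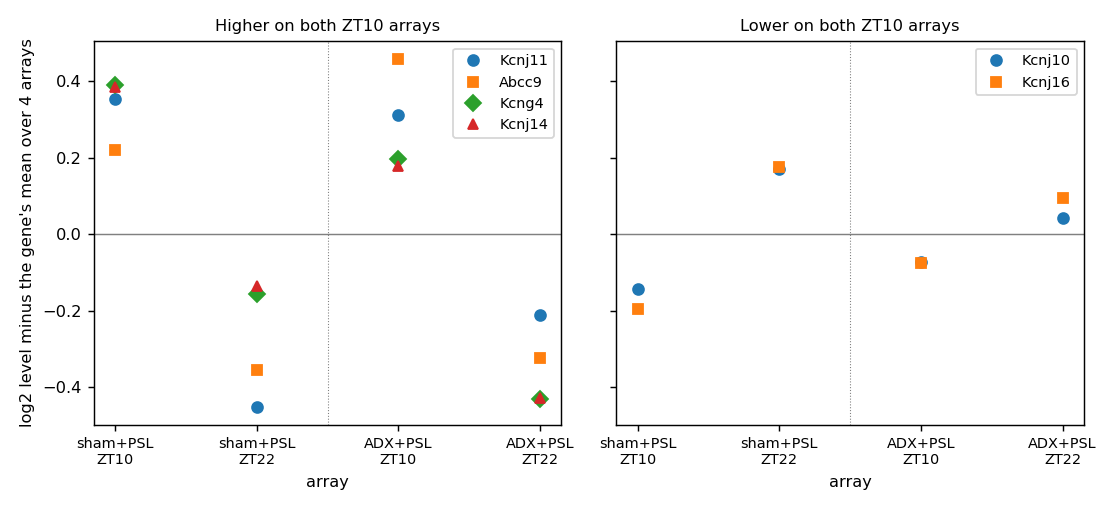
Log2 level of each gene on each array minus its mean over the 4 arrays (1 point per array, no error bars), for genes with both ZT10 levels above both ZT22 levels (left; Abcc9 is the partner subunit of Kir6 channels) and below them (right). Kcnj11, Abcc9, Kcng4 and Kcnj14 lie above 0 on both ZT10 arrays and below 0 on both ZT22 arrays, and Kcnj10 and Kcnj16 the reverse.

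The G protein-gated rectifiers, through which opioid and other inhibitory receptors hyperpolarize dorsal horn neurons, went different ways. Kcnj3 read 183, 161, 172 and 187, Kcnj6 24.6, 21.7, 29.3 and 23.6, and Kcnj9 750, 692, 823 and 621. Kcnj6 and Kcnj9 were higher on both ZT10 arrays; the log2 ratios of Kcnj6, 0.18 and 0.31, lay within its spot errors of 0.40, and that of Kcnj9 in ADX+PSL, 0.41, lay past its spot error of 0.20. Kcnj5 read 27.1, 29.1, 37.3 and 31.0, higher on both ADX+PSL arrays, by a log2 ratio of 0.46 at ZT10 with a spot error of 0.32. Kcnj4 (Kir2.3), a constitutive rectifier of neurons, read 79.7, 65.1, 61.0 and 36.7, lower on both ADX+PSL arrays and lowest at ZT22, where its log2 ratio of ADX+PSL to sham+PSL was -0.83 with a spot error of 0.29.

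Of the 12 leak channels (Kcnk) measured on every array, 10 were above 0 by time in sham+PSL (median 0.22) and 7 in ADX+PSL (median 0.03). Kcnk1 (TWIK1) read 3452, 2611, 3503 and 3400 and was lowest in sham+PSL at ZT22. Kcnk3 (TASK1), an acid-sensitive leak channel, read 1222, 1011, 1057 and 956, higher on both ZT10 arrays. The related Kcnk9 (TASK3) read 80.4, 69.5, 63.2 and 78.7, and the mechanically gated Kcnk2 (TREK1) read 125, 105, 94.3 and 120. Both of these were higher at ZT10 in sham+PSL (0.21 and 0.25) and lower in ADX+PSL (-0.32 and -0.35). Kcnk6 (TWIK2) read 433, 554, 347 and 409, lower on both ADX+PSL arrays (-0.32 and -0.44).

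The large-conductance calcium-activated channel Kcnma1 (BK) read 2448, 2229, 2462 and 2152, higher on both ZT10 arrays by 0.14 and 0.19 on the log2 scale, within the spot error. The other probes of Kcnma1 did not keep this order. They were higher at ZT10 in sham+PSL (0.31 and 0.24) and lower in ADX+PSL (-0.08 and -0.07). Kcnmb4, the neuronal beta subunit of BK, read 3115, 3198, 2710 and 2547, lower on both ADX+PSL arrays by -0.20 and -0.33. The sodium-activated Kcnt1 (Slack) read 2919, 2715, 2761 and 3134. Of the small-conductance channels, Kcnn2 read 3191, 3001, 3242 and 3243 and Kcnn3 113, 118, 116 and 112, and neither ratio left the range of the spot error.

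The names that begin with Kcn include 2 that are not channels. Kcnq1ot1, the long antisense RNA of the imprinted Kcnq1 region, read 650, 659, 956 and 720. It was higher on both ADX+PSL arrays, by 0.56 on the log2 scale at ZT10 and 0.13 at ZT22. Its second probe read 78.2, 105, 132 and 110, again with both ADX+PSL levels above both sham+PSL levels. Kcnrg, a soluble protein that interferes with the assembly of Kv1 channels, read 55.3, 39.8, 55.2 and 40.9, higher on both ZT10 arrays, whereas its second probe read 25.8, 48.0, 57.2 and 52.9 and was lower at ZT10 in sham+PSL by a log2 ratio of -0.90.

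By operation, the levels of fewer potassium channel genes were separated than by time of day. At ZT10 the median log2 ratio of ADX+PSL to sham+PSL was 0.02 beside 0.0046 over all genes, with 42 of 77 genes above 0 (54.5%, beside 51% of all genes). At ZT22 the median was 0.07 beside 0.011, with 45 above 0 (58.4%, beside 51.9%). No Kcn gene was called at ZT10, where 2.09% of all genes were called higher in ADX+PSL and 2.48% lower, and none at ZT22, where 1.6% were higher and 2.24% lower. Both ADX+PSL levels lay above both sham+PSL levels in 15 of the 77 genes (19.5%, beside 19.2% of all genes) and below them in 6 (7.79%, beside 15.7%). The 15 included Kcna3, Kcna4, Kcnj5, Kcnj8 and Kcnq1ot1, and the 6 were Kcnb2, Kcnh7, Kcnj4, Kcnk6, Kcnmb4 and Kcnq1. The first share was near that of all genes. The meningeal genes named above, which had lower levels in ADX+PSL at both times, had median log2 ratios of -2.01 at ZT10 and -1.19 at ZT22, and their part was not tested.

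Single probes that were not the ones used gave larger differences, and are named here after their values were seen. A probe of Kcnd1 read 24.4, 102, 27.5 and 19.5, high on the sham+PSL ZT22 array alone, while the log2 time ratios of the 2 other probes in sham+PSL were 0.03 and 0.12. A probe of Kcnq5 read 12.5, 9.75, 84.3 and 6.53 and was well above background on the ADX+PSL ZT10 array alone. Each of these therefore rested on 1 of several probes of its gene.

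The proteins that assemble with potassium channels, place them in the membrane or set the ion gradients, without a Kcn name, were compared as a list of 24 genes. Of these, 22 were well above background on all 4 arrays and none was called in any comparison. The 6 auxiliary subunits measured were all above 0 by time in sham+PSL (median 0.21), and 3 of them in ADX+PSL (median 0.02). Abcc9 (SUR2), the regulatory partner of Kir6 pores in muscle and vessel cells, read 292, 196, 344 and 200. Its time points were separated as those of Kcnj11 were, with log2 ratios of 0.58 and 0.78, whereas Abcc8 (SUR1), the neuronal and endocrine partner, had 0.26 and -0.21. Slc12a5 (KCC2), the K+-Cl- cotransporter that keeps chloride low in neurons, read 58806, 51349, 56191 and 48219, higher on both ZT10 arrays by 0.20 and 0.22. Slc12a7 (KCC4) was lower in ADX+PSL than in sham+PSL by -0.33 at ZT10 and -0.56 at ZT22. The 12 clustering and anchoring genes, which place Kv1 channels at nodes and scaffold receptors, had medians of 0.11 and 0.01 by time. Pericytes carry both Kcnj8 and Abcc9, and the 5 endothelial and pericyte markers had medians of -0.02 and -0.06 by time. They did not move as one: the time ratios of Rgs5 were 0.20 and -0.63 and those of Cldn5 -0.36 and -0.58. At ZT22, where Kcnj8 was higher in ADX+PSL by 0.79, the log2 ratios of these markers went both ways, with a median of 0.20. They were 0.68 for Rgs5, 0.53 for Cldn5, 0.20 for Pecam1, -0.11 for Flt1 and -0.24 for Pdgfrb. The part of these cells in the Kcnj8 ratio was not tested.

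The promoters of 70 of the 95 genes were in the RefSeq table for GRCm38.p6, with 95 start sites, each read from 250 bases before to 50 after the start on both strands. The clock motif called the E-box (CACGTG) was in 7 of the 95 promoters (7.37%, beside 7.15% of all promoters), those of Kcne4, Kcnab1, Kcnn4, Kcnh4, Kcnj2 and Kcnk5. It was in none of the 27 promoters found for 21 of the genes with both ZT10 levels higher. The D-box (TTANGTAA) was in 1 of 95 (1.05%, beside 2.32%). A loose form of the palindromic glucocorticoid response element was in 1 of 95 (1.05%, beside 0.475%), that of Kcna5. This match is shown with the motif in capitals, because adrenalectomy lowers corticosterone, the ligand of the receptor that binds such elements. It starts at -59 relative to the start site, and the stretch is chr6:126535593-126535622 (minus strand, GRCm38.p6).
Kcna5, promoter: cgctcctgGTACAACCTGTTCctcgctcct
Kcna5 itself read 73.3, 50.9, 74.9 and 65.3, higher on both ZT10 arrays, with log2 ratios of ADX+PSL to sham+PSL of 0.03 at ZT10 and 0.36 at ZT22. Its second probe read 49.4, 40.1, 41.8 and 58.5 and had no such order. The match is a description of these letters, and no binding was measured.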

How the data were processed

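Total RNA from the 4 groups was labelled with Cy3 and hybridized by the authors to 44K Agilent whole mouse genome arrays of 60-base probes (version 2). The deposited scanner files hold spot intensities, spot errors, flags and probe coordinates in mm9, and the deposited table holds intensities on the linear scale. The file headers name Agilent Feature Extraction 10.7.1.1, the submitters' processing notes 9.5.1.1. In that table all sorted rows lay within 1% of the mean of the sorted processed signals, as quantile normalization on the linear scale gives. Levels were taken from it for 39429 probes, from 44397 spots of which 1377 were controls, and log2 ratios were formed between arrays. A probe was well above background if at least 50% of its spots were flagged so.

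The limits were those of the study's methods. The Z-score, which they leave undefined, was the log2 ratio less its mean and divided by its SD over all genes, 1 probe each. A gene below background on the dimmer array has only a bound. With 1 array per group no test was run and no paired analysis was possible. Named were the genes past the limits, the gene of each family with the brightest probe, the 3 largest increases and decreases per comparison, genes with 1.5-fold between groups and a fixed list of channels; Kcn genes outside that rule were named after their values were seen. The members and gene lists were chosen with earlier results of these data known. The limits and normalization were run on simulated data with changes well past the limits, in probes well above background on every array. Changes near the limits, or with the dimmer array below background as for Kcnv1, were not simulated. Alternatives were quantile normalization of the log2 signals, a shift by the 75th percentile, normexp (offset 50) with limma 3.58.1 in R 4.3.3, no background correction, other probes, limits and filters. Other steps used Python 3.11.15, numpy 2.4.6 and pandas 2.3.3. The number of arrays limits the precision. No spot was saturated. Some named genes of the rule are not reported here.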

Additional observations from a re-analysis of the deposited data

Results flagged for a closer look

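In 5 of 77 genes (6.49%) the ratio of ZT10 to ZT22 went opposite ways in sham+PSL and ADX+PSL, each past its spot error, beside 5.56% of all genes well above background on the 4 arrays; with 1 array per group the differences were not tested. A ratio above 1 in sham+PSL and below 1 in ADX+PSL was found for Kcnc2, a Kv3 channel of fast-spiking neurons (log2 ratios of 0.28 and -0.25, a difference of 0.53), Kcnk2, the TREK1 leak channel (0.25 and -0.35, a difference of 0.60), and Kcnk4, the TRAAK leak channel (0.31 and -0.24, a difference of 0.54). The opposite was found for Kcnh3, an ether-a-go-go channel of forebrain neurons (-0.55 and 0.38, a difference of -0.93), and Kcnk5, the TASK2 leak channel (-0.31 and 0.47, a difference of -0.78).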

How the results depend on the processing

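The median log2 ratio by time ranged from 0.09 to 0.17 in sham+PSL and from 0.04 to 0.11 in ADX+PSL; that of ADX+PSL to sham+PSL ranged from -0.02 (second probe) to 0.04 at ZT10 and from 0.04 to 0.10 at ZT22. Of 941 recomputed values of 178 single-gene ratios, 61 moved by more than the spot error and 53, of 30 ratios, changed sign, 14 of them by more than the spot error. In 4 the ratio that changed sign had been past its spot error, all with the second probe: Kcna6 in ADX+PSL by time (0.26 to -0.09) and by operation at ZT10 (0.35 to -0.02), and by operation at ZT22 Kcnj3 (0.22 to -0.01) and Kcnj14 (-0.29 to 0.12). Counts of called genes moved. In sham+PSL the count higher at ZT10 (1) was 0 under normexp, under the mean signal and with both or all 4 arrays well above background, 2 with the mean over probes and 3 at a ratio of 1.5; the count lower (1) was 3 without a filter. In ADX+PSL the count higher at ZT10 (0) was 1 with the 75th percentile shift, the second probe (Kcnq5) or a ratio of 2 without a Z-score and 6 at a ratio of 1.5, and the count lower (0) was 1 with the second probe. At ZT10 the count higher in ADX+PSL (0) was 3 with the second probe, and the count lower (0) was 1 with the second probe, at a ratio of 2 or without a filter and 3 at a ratio of 1.5. At ZT22 the count higher (0) was 1 with the second probe or at a ratio of 2 and 2 at a ratio of 1.5; the count lower (0) was 1, Kcnj13, with the mean over probes, the second probe, a ratio of 2 or Z-scores within 20 bins, 4 at a ratio of 1.5 and 2 without a filter. Of 23 genes with a second probe, both ADX+PSL levels were higher in 5 and lower in 3, and both ZT10 levels higher in 6 and lower in 1 (Kcnj13); the count lower at ZT10 (3) was 5 under normexp and under the mean signal. At a ratio of 1.5, all genes were called higher and lower in 5.24% and 5.70% (sham+PSL), 5.14% and 4.08% (ADX+PSL), 6.09% and 5.73% (ZT10) and 4.64% and 5.79% (ZT22); at a ratio of 2, in 1.99% to 3.12%. Without a filter it was 2.29% to 2.81%. With Z-scores within 20 bins, 1.80% of all genes were called lower at ZT22. In sham+PSL, 0.54% were called higher at ZT10 with both arrays well above background, and 0.48% with all 4. No share of all genes called is given for the second probe, the mean over probes, or the other normalizations and background corrections. Those counts therefore cannot be set against all genes. The cause of the moves in the counts was not tested. No paired analysis was possible because each group had 1 array.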
